A study of Mus musculus with 8 samples.

Results

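The genes described here are the classical cadherins Cdh1, Cdh2, Cdh3 and Cdh11, the epithelial adhesion molecule Epcam, the nectin Nectin4, and the catenins Ctnna1, Ctnnb1 and Ctnnd1. They were chosen by name, not by their values. Of the 9 symbols, 8 had a row among the 10924 genes of the expression table. Cdh11, a cadherin of mesenchymal cells, was absent from the table, also under older symbols, and is not described further. Of the 8, 7 passed the filter for testing (a normalized read count of at least 10 in at least 2 libraries), and Cdh3 did not.

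The libraries came from cell lines of mammary tumors of FBV/N mice (spelled as in the sample labels), in which the polyomavirus middle T oncogene (PyMT) is expressed from the MMTV promoter. All 4 groups carry this oncogene. The lines were either Lats1-CKO, with a conditional deletion of the Hippo pathway kinase gene Lats1, or WT, and cells of each genotype were sorted by flow cytometry into a basal-like population (EpCAM-low, CD49f-high) and a luminal population (EpCAM-high, CD49f-high). The study then expanded the sorted cells briefly in culture before RNA was made into MARS-seq libraries, which read the 3′ ends of transcripts. It reports that sorted WT basal-like cells became partly luminal by EpCAM and CD49f over passages, whereas Lats1-CKO basal-like cells kept their phenotype. How far this had gone in these libraries was not tested. The groups were thus Lats1-CKO basal-like, WT basal-like, Lats1-CKO luminal and WT luminal, with 2 libraries each. The labels give neither the passage, nor the number of lines, nor whether the replicates were separate cultures, so the p-values reflect no more than the spread among these libraries. The Cre that deleted Lats1 is not given in the sources used here.

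Cadherins are transmembrane proteins whose outer domains bind cadherins of the neighbouring cell in the presence of calcium. Their cytoplasmic tails hold beta-catenin, which binds alpha-catenin and through it the actin cytoskeleton, and p120-catenin, which keeps the cadherin at the surface, and together these form the adherens junction. Epithelial cells are held together mainly by E-cadherin, whereas mesenchymal cells often carry N-cadherin, and the exchange of the first for the second, known as the cadherin switch, is a classical mark of epithelial-mesenchymal transition. Nectins assemble at the same junctions without calcium, and EpCAM is a separate, non-cadherin adhesion protein of epithelia that is also a common sorting marker.

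The table summed to between 1070358 and 2334446 reads a library, and 1 read was worth between 0.638 and 1.35 normalized read counts. Lats1 itself lay between 8.04 and 13.4 in the 4 Lats1-CKO libraries and between 30.3 and 62.5 in the 4 WT libraries, with no overlap. The 3′ tags can lie outside the deleted exons, so these counts follow the labels without measuring the deletion. Across genes, the Pearson correlation of log2 values between the replicates of a group was 0.825 and 0.909 for the Lats1-CKO and WT basal-like groups, and 0.883 and 0.911 for the Lats1-CKO and WT luminal groups. Each Lats1-CKO basal-like library lay closer to a Lats1-CKO luminal library (0.880 for replicate 1 with luminal replicate 1 and 0.883 for replicate 2 with luminal replicate 2) than to its own replicate. Replicate 1 was also closer to both WT basal-like libraries (0.830 and 0.846). Replicate 2 was closer to every library of the other groups, at the lowest 0.82524 with WT luminal replicate 2, against 0.82517 with replicate 1. WT basal-like replicate 1 and WT luminal replicate 2 correlated at 0.950, above either with its own group. The sum of basal keratins and other basal markers (Krt5, Krt14, Krt17, Trp63 and Cnn1) did not follow the sort. It was 177 and 717 in Lats1-CKO basal-like cells and 2143 and 1123 in WT basal-like cells. In luminal cells it was 3055 and 19700.3 for Lats1-CKO and 3868 and 1993 for WT. Krt14 made up most of the sum in every library. Cnn1, at low counts, went the other way, with 6.70 and 11.6 in Lats1-CKO basal-like cells and at most 2.02 elsewhere. Trp63 had 21.4 and 0 in Lats1-CKO basal-like cells and 4.66 and 5.57 in WT basal-like cells. In luminal cells it had 6.72 and 18.2 for Lats1-CKO and 2.70 and 0 for WT.

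The sequence upstream of the start is shown for Epcam and Nectin4, the genes of this set that were called lower and had an entry among the RefSeq promoters (GRCm38.p6), where 4 of the 9 symbols matched. The window of each entry is the 250 bases before the RefSeq start, read 5′ to 3′ on the gene's own strand. Capitals mark CAGGTG on either strand (CACCTG is its reverse), a form of the E-box CANNTG that repressors of the Snail and Zeb families are known to bind in the Cdh1 promoter. The Epcam window is chr17:87635729-87635978, plus strand. The Nectin4 stretch is chr1:171369923-171370098, plus strand, and ends at base 176 because the GENCODE gene begins before the RefSeq start.
Epcam: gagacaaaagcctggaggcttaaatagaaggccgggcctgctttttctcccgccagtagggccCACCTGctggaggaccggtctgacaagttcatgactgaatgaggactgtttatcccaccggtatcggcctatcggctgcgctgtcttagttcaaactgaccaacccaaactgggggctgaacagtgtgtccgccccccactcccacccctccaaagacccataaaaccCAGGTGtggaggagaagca
Nectin4: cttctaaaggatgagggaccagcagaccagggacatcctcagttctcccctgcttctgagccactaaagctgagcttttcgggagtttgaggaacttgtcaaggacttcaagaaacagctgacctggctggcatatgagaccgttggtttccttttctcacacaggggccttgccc

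The Epcam window held 2 such matches, starting at bases 64 and 232 counted from its 5′ end, and the Nectin4 window held 0. Of 32851 RefSeq promoter windows of 250 bases, 17.2% held at least 1 match and 2.06% at least 2. These matches describe letters only, and a window without a match says nothing about the factor.

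Cdh1 (chromosome 8, 106603351 to 106670246, plus strand, GRCm38), which encodes E-cadherin, was low in Lats1-CKO basal-like cells alone among the 4 groups. Its normalized read count was 21.4 and 19.4 in Lats1-CKO basal-like cells, against 400.3 and 444 in WT basal-like cells. In the luminal populations it was 368 and 398 in Lats1-CKO cells, against 501 and 539 in WT cells. The 2 libraries of each group lay close together, and no groups overlapped, although WT basal-like and Lats1-CKO luminal cells nearly touched. Between Lats1-CKO and WT basal-like cells the log2 fold change was -4.30 ± 0.25 (SE), a 19.7-fold lower level (limma adjusted p = 0.00251), and Cdh1 ranked 1 of 9031 genes by p-value. Between Lats1-CKO basal-like and Lats1-CKO luminal cells it was -4.16 ± 0.25, or 17.9-fold lower (limma adjusted p = 0.00297), again at rank 1. In a library, fewer cells with the transcript and less of it per cell cannot be told apart.

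**Figure D1:**
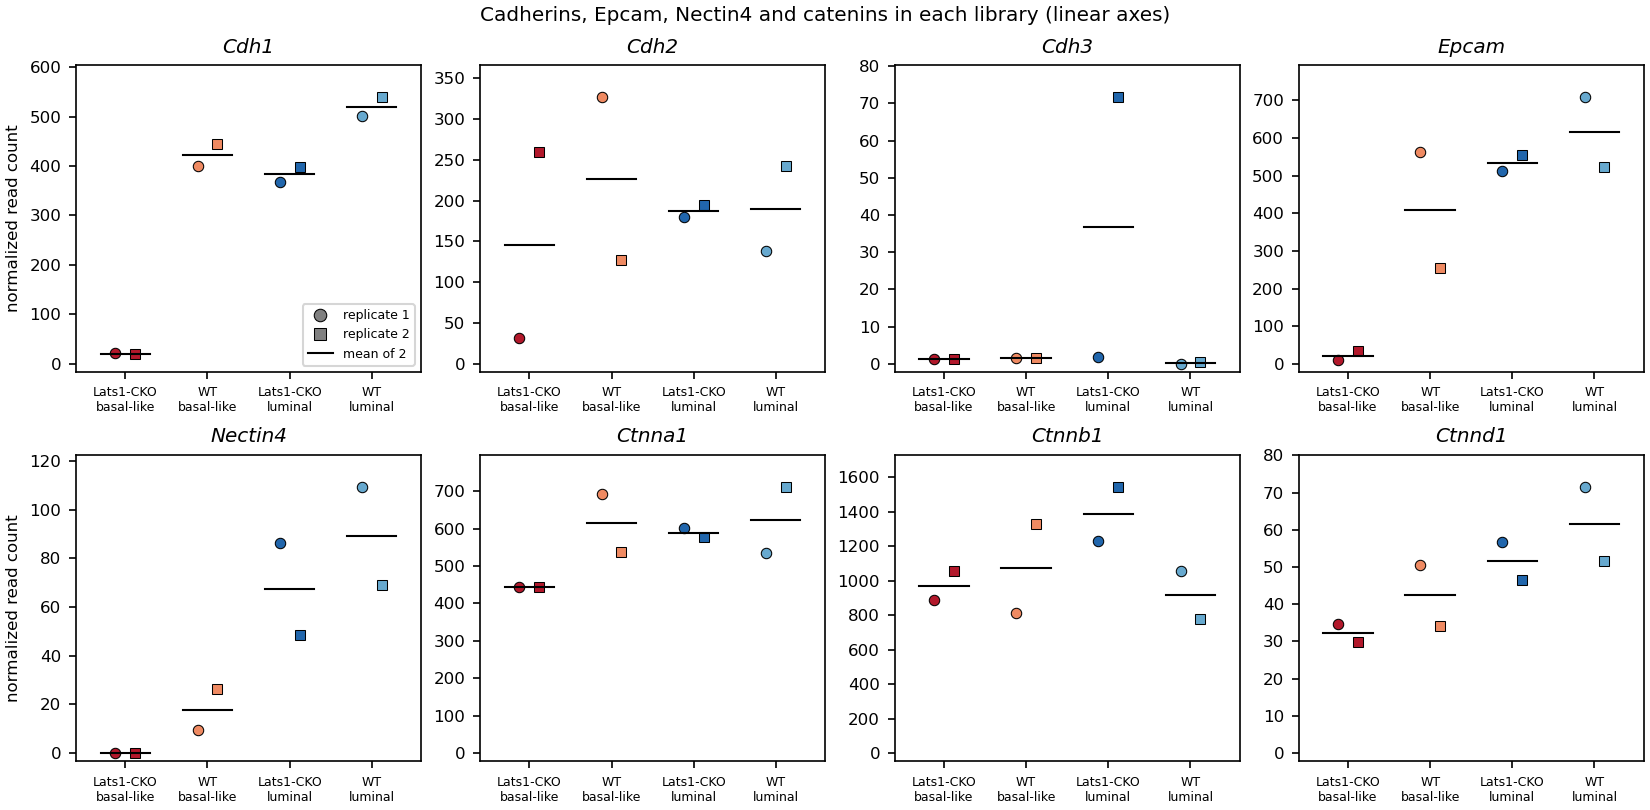
Normalized read count (linear axes) of the 8 genes with a row in the table, in each library of the 4 groups. Circles are replicate 1, squares replicate 2, and bars the mean of 2 libraries. Cdh1 stands at 21.4 and 19.4 in Lats1-CKO basal-like cells and at 368 or more in every other library, Epcam and Nectin4 are lowest in the same cells, Cdh2 overlaps between all groups, and Cdh3 is raised in a single library.

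The call for Cdh1 between the basal-like populations rested in part on 1 WT library. Without WT basal-like replicate 1 the log2 fold change was -4.38 with a limma adjusted p of 0.0561, and in a model of the 2 compared groups alone the adjusted p was 0.125. Across all alternatives the adjusted p lay between 1.86e-24 (DESeq2 with the study's settings) and 0.125, and the log2 fold change between -4.38 and -3.95. The call against Lats1-CKO luminal cells was lost only in a model of those 2 groups alone (adjusted p = 0.115).

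Smaller differences in Cdh1 did not pass. Both Lats1-CKO luminal libraries lay below both WT luminal libraries (log2 fold change -0.44 ± 0.25, limma adjusted p = 0.9998), and both WT basal-like libraries lay below both WT luminal libraries (-0.30 ± 0.25, adjusted p = 1). The interaction (basal-like minus luminal in Lats1-CKO, less the same difference in WT) was -3.86 ± 0.35 on the log2 scale. Its unadjusted p of 7.22e-06 was the lowest of 9031 genes, but after adjustment limma gave 0.0652. DESeq2 called it (adjusted p = 1.99e-10 with default settings) and edgeR did not (0.108), with a range of 1.99e-10 to 0.658 over all alternatives.

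Cdh2 (chromosome 18, 16588877 to 16809246, minus strand), which encodes N-cadherin, was not higher on average where Cdh1 was low. Its normalized read count was 32.1 and 259 in Lats1-CKO basal-like cells, against 326 and 127 in WT basal-like cells. It was 179 and 195 in Lats1-CKO luminal cells, against 138 and 242 in WT luminal cells. The groups overlapped in every comparison, and the replicates of either basal-like group were further apart than the means of any 2 groups. The log2 fold change between Lats1-CKO and WT basal-like cells was -1.14 ± 0.91 (limma adjusted p = 0.789), and it was 0.34 without Lats1-CKO basal-like replicate 1, the library with 32.1. An antisense gene, Gm15485, overlaps Cdh2, and the strand setting of the counting was not stated.

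The ratio of Cdh2 to Cdh1, read only from library to library and not as a comparison of the 2 genes' levels, was 1.5 and 13.3 in Lats1-CKO basal-like cells and between 0.275 and 0.816 in the other 6 libraries. Both Lats1-CKO basal-like ratios were above all others. In replicate 1 Cdh2 was at its lowest value of all 8 libraries, and in replicate 2 it lay within the range of the others, whereas Cdh1 was lowest in both.

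**Figure D2:**
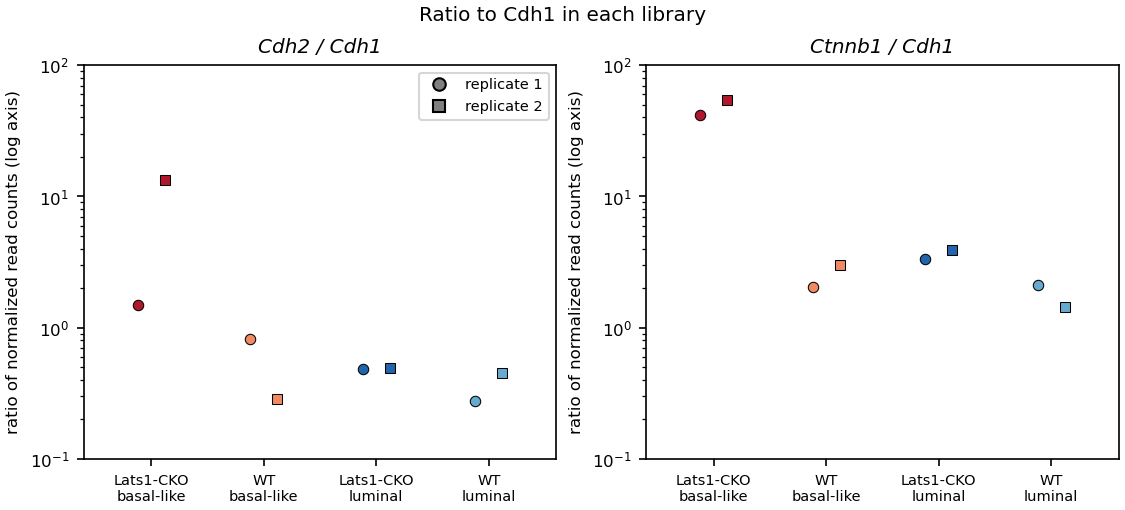
Ratio of Cdh2 to Cdh1 (left) and of Ctnnb1 to Cdh1 (right) in each library of the 4 groups, on log axes, with circles for replicate 1 and squares for replicate 2. Lats1-CKO basal-like libraries stand highest in both panels, at 1.5 and 13.3 for Cdh2 and at 41.4 and 54.3 for Ctnnb1.

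Cdh3 (chromosome 8, 106510891 to 106557297, plus strand), which encodes P-cadherin of basal and myoepithelial cells, begins and ends upstream of Cdh1 on the same strand, with 46.1 kb between the genes. It had 1.34 and 1.29 normalized read counts in Lats1-CKO basal-like cells and 1.55 and 1.59 in WT basal-like cells, or 2 and 4 reads over each group. It had 1.92 and 71.7 in Lats1-CKO luminal cells and 0 and 0.638 in WT luminal cells. The signal was thus almost confined to Lats1-CKO luminal replicate 2, with 71 reads, and with 1 high library it was neither tested nor taken as a group difference. The same library held 4881 normalized read counts of Krt5, a basal keratin, against 18.3 to 31.9 in the other 7.

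Epcam (chromosome 17, 87635979 to 87651129, plus strand) was low in the same cells as Cdh1. Its normalized read count was 10.7 and 33.7 in Lats1-CKO basal-like cells, against 562 and 255 in WT basal-like cells. It was 511 and 555 in Lats1-CKO luminal cells, against 708 and 523 in WT luminal cells. Both basal-like groups had been sorted as EpCAM-low. Both Lats1-CKO basal-like libraries were below the other 6, whereas WT basal-like replicate 1 lay within the luminal range and replicate 2 below it. Between Lats1-CKO and WT basal-like cells the log2 fold change was -4.24 ± 0.57, or 18.9-fold lower (limma adjusted p = 0.0287). This call was lost without Lats1-CKO basal-like replicate 1 (adjusted p = 0.0729), WT basal-like replicate 1 (0.240) or WT basal-like replicate 2 (0.0867), with only the compared groups (0.242) and by edgeR (0.06), while all alternatives lay between 2.86e-09 and 0.242. The log2 fold change was -3.45 without Lats1-CKO basal-like replicate 1, -5.02 without replicate 2 and -3.38 by DESeq2 with the study's settings.

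Because the cells were sorted on EpCAM protein, the population differences in Epcam transcripts describe the gate and are given without a test. The log2 fold change was -4.73 ± 0.57 between Lats1-CKO basal-like and Lats1-CKO luminal cells, and -0.68 ± 0.57 between WT basal-like and WT luminal cells. Between Lats1-CKO and WT luminal cells Epcam overlapped (-0.19 ± 0.57, limma adjusted p = 0.9998).

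Nectin4 (chromosome 1, 171370099 to 171388598, plus strand), an epithelial nectin, had 0 reads in both Lats1-CKO basal-like libraries, against 9.33 and 26.3 normalized read counts in WT basal-like cells. It had 86.4 and 48.4 in Lats1-CKO luminal cells, against 109 and 68.9 in WT luminal cells. The groups of the basal-like and luminal populations did not overlap within either genotype, and WT basal-like cells lay between Lats1-CKO basal-like cells and both luminal groups. With 3 reads in the whole group taken as the floor, Nectin4 was at least 8.96-fold lower in Lats1-CKO basal-like than in WT basal-like cells (limma adjusted p = 0.0411). It was at least 34.4-fold lower in Lats1-CKO basal-like than in Lats1-CKO luminal cells (limma adjusted p = 0.00972). Nectin4 passed the filter only through the groups in which it was detected. Arhgap30, which is not in the table, overlaps it on the same strand once genes are extended as for the counting.

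The first of these calls was fragile. It was lost without any 1 of the 4 libraries (adjusted p of 0.0663 to 0.196), with a pseudocount of 5 (0.232), with a minimum of 20 (0.055), with only the compared groups (0.513), by edgeR (0.182) and by DESeq2 with the study's settings (0.0607), and all alternatives lay between 0.011 and 0.513. The second was lost without Lats1-CKO luminal replicate 1 (0.102) or replicate 2 (0.0533), with only the compared groups (0.194) and by edgeR (0.0629), with a range of 3.82e-06 to 0.194. In WT cells alone, Nectin4 was also lower in basal-like than in luminal cells in both libraries, by 2.39 ± 0.60 on the log2 scale, with an unadjusted limma p of 0.00485 and an adjusted p of 1.

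**Figure D3:**
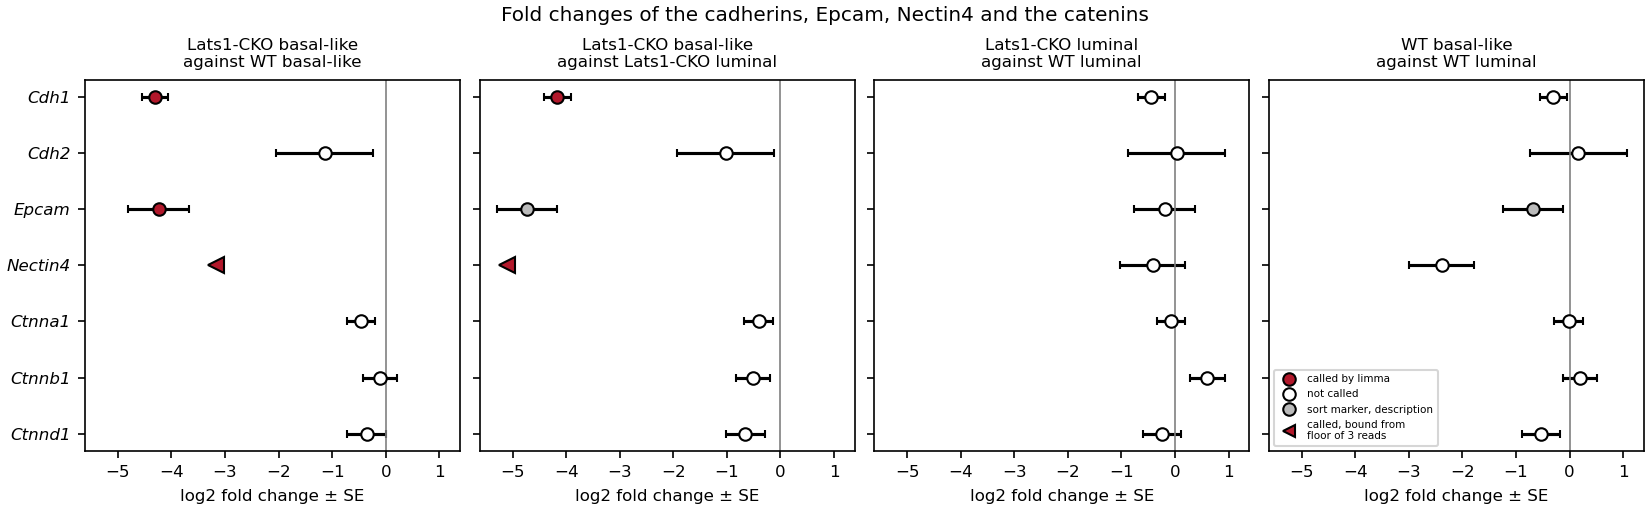
Log2 fold change ± SE (limma, 2 libraries a group) of the 7 tested genes in the 4 comparisons. Filled points passed an adjusted p of 0.05, open points did not, grey points are Epcam between populations sorted on EpCAM, a description only, and filled triangles give Nectin4 as a bound set by 3 reads in the Lats1-CKO basal-like group. Cdh1 and Nectin4 were called in both comparisons that involve Lats1-CKO basal-like cells and Epcam between the basal-like populations, and the catenins and Cdh2 stayed between -1.14 and 0.60 in all 4.

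No catenin was called by limma in any comparison. Ctnna1 (chromosome 18, 35118859 to 35254779, plus strand), which encodes alpha-E-catenin, the link to actin, had 443 and 444 normalized read counts in Lats1-CKO basal-like cells, against 693 and 536 in WT basal-like cells. It had 601 and 576 in Lats1-CKO luminal cells, against 535 and 713 in WT luminal cells. Both Lats1-CKO basal-like libraries lay below the other 6, with a log2 fold change of -0.46 ± 0.26 against WT basal-like cells (limma adjusted p = 0.687) and -0.41 ± 0.26 against Lats1-CKO luminal cells (adjusted p = 0.869). Lrrtm2, which is not in the table, lies within the gene on the opposite strand.

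Ctnnb1 (chromosome 9, 120929216 to 120960507, plus strand) encodes beta-catenin, which serves both the junction and Wnt signalling. It had 888 and 1054 normalized read counts in Lats1-CKO basal-like cells, against 814 and 1330.2 in WT basal-like cells, and the groups overlapped (log2 fold change -0.11 ± 0.32, limma adjusted p = 0.949). It had 1228 and 1546 in Lats1-CKO luminal cells, against 1058 and 779 in WT luminal cells, with both Lats1-CKO libraries higher but no call (0.60 ± 0.32, adjusted p = 0.9998). Relative to Cdh1 in the same library, Ctnnb1 stood at 41.4 and 54.3 in Lats1-CKO basal-like cells and between 1.44 and 3.89 in the other 6 libraries. The gene overlaps Ulk4, which is also in the table, on the opposite strand.

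Ctnnd1 (chromosome 2, 84600071 to 84650765, minus strand), which encodes p120-catenin, had 34.8 and 29.8 normalized read counts in Lats1-CKO basal-like cells, against 50.5 and 34.2 in WT basal-like cells. It had 56.6 and 46.4 in Lats1-CKO luminal cells, against 71.6 and 51.7 in WT luminal cells. It was lowest in Lats1-CKO basal-like cells on average, but overlapped with WT basal-like cells and was not called in any comparison, with log2 fold changes of -0.36 ± 0.36 (limma adjusted p = 0.829) against WT basal-like cells and -0.65 ± 0.36 (adjusted p = 0.815) against Lats1-CKO luminal cells. Gm28635, not in the table, overlaps it on the same strand.

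Counted over the set, Cdh1 and Epcam, 2 of the 7 tested genes, were called lower in Lats1-CKO between the basal-like populations, where limma called 0.554% of the 9031 genes tested (10 higher and 40 lower). Nectin4 was called as well, but since it passed the filter only through groups where it is high, its call is not counted here. Between the populations of Lats1-CKO cells Cdh1 was called, where 0.487% of all genes were (44, all lower), with Nectin4 again not counted and Epcam, the sort marker, given as a description only. The median log2 fold change of the 7 was -1.14 and -1.02 in these comparisons, against -0.02 and 0.01 over all genes. Cdh2, which was not called, is the middle gene of the 7 in both, so that setting Nectin4 at its bound leaves these medians as they are. They depend on 1 library, since Cdh2 stood at 0.34 and 0.47 without Lats1-CKO basal-like replicate 1. They also include Nectin4 and, in the second comparison, the sort marker Epcam. DESeq2 with default settings called 89 genes higher and 95 lower in the first comparison, and 20 higher and 117 lower in the second, so the lower side predominated less than by limma.

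As a description of the values, both libraries of Lats1-CKO basal-like cells lay below both WT basal-like libraries for 4 of the 7 (Cdh1, Epcam, Nectin4 and Ctnna1), where 18.2% of all genes did. Against Lats1-CKO luminal cells they lay below for 6 of the 7 (all but Cdh2, with Nectin4 and the sort marker Epcam among them), where 18% of all genes did. Lats1-CKO luminal cells lay below WT luminal cells for Cdh1 alone, where 15.2% of genes did. WT basal-like cells lay below WT luminal cells for Cdh1, Ctnnd1 and Nectin4, where 12.7% of genes did. That was 1 and 3 of the 7. Nectin4, in the counts of 4, 6 and 3, passed the filter only through groups where it is high.

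Limma called 0 of the 7 in Lats1-CKO luminal against WT luminal cells and 0 in WT basal-like against WT luminal cells, where it also called 0% of all genes. At an unadjusted p under 0.05 these were 0 and 1 of the 7, and 251 and 133 of all genes. The 1 gene was Nectin4, whose place among the tested genes rests on the groups where it is high. EdgeR called 0 genes in either, and DESeq2 with default settings called 27 and 4 genes, none of them in the set. For the interaction limma called 0% of all genes and 0 of the 7, with 210 genes and 3 of the 7 at an unadjusted p under 0.05. The 3 were Cdh1, the sort marker Epcam and Nectin4, to which the same limit applies. In the interaction edgeR called 0 genes and DESeq2 called 22, Cdh1 and Epcam among them.

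The wider adhesion machinery was examined through lists of genes, again between Lats1-CKO and WT cells of the basal-like population, where the median over all genes was -0.02 on the log2 scale. Of 12 tested genes that cut, inhibit or turn over cadherins and EpCAM, limma called 2 lower and 0 higher (median -0.08). Over all genes it called 0.554% in this comparison. St14, the membrane serine protease matriptase, had 9.38 and 18.1 in Lats1-CKO basal-like cells, against 280 and 181 in WT basal-like cells (16.1-fold lower, log2 fold change -4.01 ± 0.40, limma adjusted p = 0.0149). Spint1, its inhibitor, had 2.68 and 3.88, against 67.6 and 43.8 (13.1-fold lower, -3.71 ± 0.44, limma adjusted p = 0.0237). Like Nectin4, Spint1 passed the filter only through groups where it is high. Among Lats1-CKO basal-like libraries, St14 reached the filter's minimum in replicate 2 alone. It thus passed only with the help of groups where it is high. The calls of Spint1 and St14, and the count of 2 lower, are therefore a description only. The general sheddases of the same list, Adam10 and Adam17, were not called by limma. EdgeR called 1 gene of this list and DESeq2 3, Spint1, Spint2 and St14.

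Limma called no gene in the lists of intracellular junction components or of EpCAM partners. None of 17 tested actin linkers was called (7 with a positive fold change, median -0.12), nor any of 6 other catenins (3 positive, median -0.36), 4 partners of EpCAM (2 positive, median -0.14), 5 genes of the beta-catenin destruction complex (1 positive, median -0.13) or 11 transcription partners and targets of beta-catenin (5 positive, median -0.03). Jup, or plakoglobin, which can stand in for beta-catenin at the junction, had 0 and 2.59 in Lats1-CKO basal-like cells, against 2.33 and 13.5 in WT basal-like cells. At an unadjusted p under 0.05 these were 4 of the actin linkers, 1 of the other catenins, 1 of the EpCAM partners, 0 of the destruction complex and 1 of the partners and targets, where 800 of the 9031 genes tested were. EdgeR called 0 in all 5 lists, and DESeq2 called 1 gene, the EpCAM partner Cldn7, a claudin of tight junctions. Cldn7 had 18.8 and 25.9 in Lats1-CKO basal-like cells, against 376 and 333 in WT basal-like cells, without overlap (log2 fold change -3.94 ± 0.65, limma adjusted p = 0.065). Of 16 other cadherins listed, 3 had a row (Cdh13, Cdh15 and Cdh19), and only Cdh13 could be tested and was not called.

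**Figure D4:**
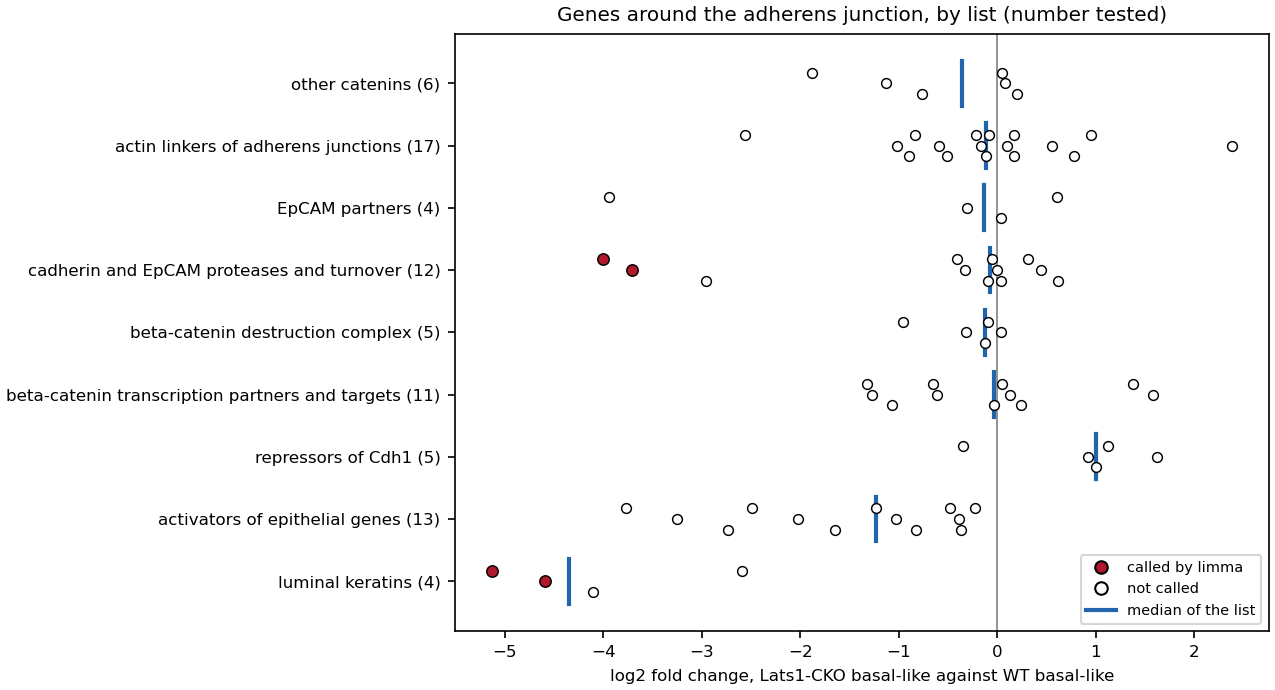
Log2 fold change (Lats1-CKO over WT, basal-like cells) of each tested gene in 9 lists around the adherens junction. Red points were called by limma, open points were not, and blue bars give the median of each list. Called genes lie in the lists of proteases and turnover, where the calls are a description only, and of luminal keratins. The lists of actin linkers and beta-catenin partners centre near 0.

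Regulators of Cdh1 transcription were not called by limma in basal-like cells, in either direction. Of 5 tested repressors 4 were on the positive side (median 1.0 on the log2 scale), 1 at an unadjusted p under 0.05 (again against 800 of 9031 genes), and edgeR and DESeq2 called 0. Twist1, a bHLH factor of mesenchymal cells, had 249 and 199 in Lats1-CKO basal-like cells, against 120 and 115 in WT basal-like cells, without overlap. Snai1, the Snail zinc finger repressor, had 413 and 123.0 against 102 and 123.3, and Twist2 had 241 and 54.4 against 41.2 and 66.0, so that 1 library carried each difference. Snai2 had 16.1 and 38.8 against 7.77 and 7.16, also without overlap, and passed the filter only through groups where it is high. Tcf3 had 205 and 150.1 against 247 and 201. The share of all genes that lay higher without overlap was not computed, so these have no background. Zeb1 and Tcf4 were too low to test, and Zeb1 had 14.7 and 9.06 against 4.66 and 6.36.

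Of 13 tested activators of epithelial genes 13 had a negative fold change in the same comparison. The median was -1.23, with Esrp2 (1.34 and 0 against 6.22 and 0.796) in the middle. Esrp2 stayed there where Ovol1, without a read in either Lats1-CKO basal-like library, was set at its bound. Grhl1, Grhl2, Grhl3, Ovol1, Ovol2, Elf3, Elf5, Esrp1 and Esrp2 passed the filter only through groups where they are higher. The count of 13 and the median are thus a description only. Without overlap, 7 of the 13 were lower, where 18.2% of all genes were. Klf4 had 123 and 2486 in Lats1-CKO basal-like cells, against 728 and 821 in WT basal-like cells. Limma called 0 of the 13, with 5 at an unadjusted p under 0.05 (800 of 9031 over all genes). EdgeR called 0 and DESeq2 2, Grhl2 and Esrp1. Against Lats1-CKO luminal cells, where limma called 0.487% of all genes, the same 2 were lower by limma. They are named after their values were seen. Both passed the filter only through groups where they are higher, so their calls are a description only. Grhl2, a grainyhead factor of epithelia, had 4.02 and 5.18 in Lats1-CKO basal-like cells, against 52.8 and 57.5 in Lats1-CKO luminal cells (log2 fold change -3.33 ± 0.46, limma adjusted p = 0.0303). Esrp1, an epithelial splicing regulator, had 1.34 and 6.47, against 103 and 70.7 (-4.37 ± 0.66, adjusted p = 0.0493).

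Of 4 tested luminal keratins limma called 2 lower between the basal-like populations and 0 higher, where it called 0.554% of all genes. Krt8, which pairs with Krt18 in simple epithelia, had 20.1 and 36.2 normalized read counts in Lats1-CKO basal-like cells, against 1811 and 529 in WT basal-like cells (35-fold lower, log2 fold change -5.13 ± 0.64, limma adjusted p = 0.0237). Krt18 had 54.9 and 103.5, against 2450 and 1386 (24.1-fold lower, -4.59 ± 0.49, adjusted p = 0.0192). The other 2 did not pass, with log2 fold changes of -4.10 for Krt7 (limma adjusted p = 0.221) and -2.59 for Krt19 (0.728). EdgeR called 1 of the 4 and DESeq2 3, Krt7, Krt8 and Krt18. At an unadjusted limma p under 0.05 these were 3, where 800 of the 9031 genes tested were. Summed over Krt7, Krt8, Krt18 and Krt19, the luminal keratins stood at 173 and 236 in Lats1-CKO basal-like cells and between 2018 and 12228 in the other 6 libraries.

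Of 4 tested fibroblast markers limma called 0 in any comparison. Between the basal-like populations DESeq2 called Col3a1 and Thy1, edgeR none, and 2 had an unadjusted limma p under 0.05 (800 of 9031 over all genes). Col3a1 and Thy1 passed the filter only through the Lats1-CKO basal-like group, where they are high, so these counts and calls are a description only. The sum over 6 fibroblast markers with a row (Pdgfra, Dcn, Col1a1, Col1a2, Col3a1 and Thy1, of 8 listed) was 366 and 302 in Lats1-CKO basal-like cells and between 2.70 and 48.4 in the other 6 libraries. Different genes made up the sum in the 2 Lats1-CKO basal-like libraries, with Col3a1 at 238 and 38.8, Pdgfra at 76.3 and 2.59, and Col1a2 at 14.7 and 220.04. Dcn was at 0 in Lats1-CKO basal-like replicate 1 and in all 6 other libraries. The sum over 5 chondrocyte markers (Col2a1, Acan, Col9a1, Col11a2 and Sox9, of 6 listed) was 289 in Lats1-CKO basal-like replicate 1 and 30652 in replicate 2, and it was 4345 in Lats1-CKO luminal replicate 2 and between 407 and 609 in the other 5 libraries. Of 7 immune markers 2 had a row (Cd68 and Csf1r), with sums of 32.1 and 73.8 in Lats1-CKO basal-like cells and 6.06 to 34.5 elsewhere, and of 5 endothelial markers 1 had a row (Kdr), with 18.8 and 0 in Lats1-CKO basal-like cells and at most 1.92 elsewhere. The part of these cell types in the cadherin and Epcam differences was not tested.

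**Figure D5:**
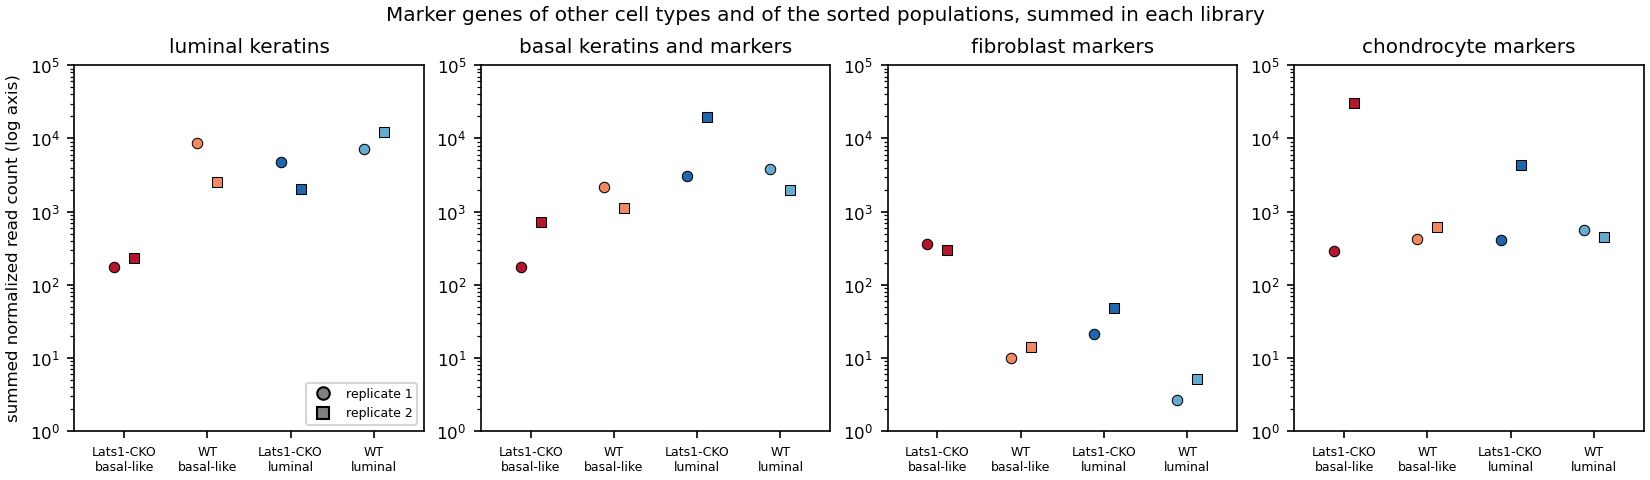
Summed normalized read count (log axis) of luminal keratins, basal keratins and markers, fibroblast markers and chondrocyte markers in each library, with circles for replicate 1 and squares for replicate 2. Lats1-CKO basal-like libraries are lowest in luminal keratins (173 and 236) and highest in fibroblast markers (366 and 302), while chondrocyte markers reach 30652 in replicate 2 of that group only.

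The genes most alike in pattern were found by Pearson correlation of log2 values over the 8 libraries, as a description without a test. The 5 most like Cdh1 were Serinc2, Samd10, Shtn1, Tmem102 and Hook2, with r of 0.986 to 0.993. The 5 most like Epcam were Marveld2, Lsr, Large2, Ripk4 and Krtcap3, with r of 0.991 to 0.996, and those most like Nectin4 were Elmo3, Map3k9, Ap1m2, Mfap1a and Fam187b, with r of 0.972 to 0.984. Serinc2, the first of these for Cdh1, had 12.1 and 6.47 normalized read counts in Lats1-CKO basal-like cells, against 451 and 430 in WT basal-like cells, 350.2 and 309 in Lats1-CKO luminal cells and 676 and 448 in WT luminal cells. Marveld2, which encodes the tight junction protein tricellulin, had 1.34 and 3.88 in Lats1-CKO basal-like cells, against 46.6 and 23.1 in WT basal-like cells, 53.7 and 53.5 in Lats1-CKO luminal cells and 64.9 and 57.4 in WT luminal cells. Among the set itself, Cdh1 correlated at 0.958 with Epcam, 0.930 with Nectin4, 0.809 with Ctnna1, 0.718 with Ctnnd1, 0.453 with Cdh2 and 0.185 with Ctnnb1, over the same 8 libraries, which these values share.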

How the data were processed

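Per the study's methods and the labels, the authors processed MARS-seq reads with cutadapt (trimming), STAR (alignment to mm10) and HTSeq (counts per GENCODE gene in union mode) after extending genes by 1000 bases at the 5′ and 100 bases at the 3′ edge, and used DESeq2 for normalization. The strand setting, GENCODE release and use of molecular identifiers are not given in the sources used here. The deposited values are normalized read counts, a signal in which each library's reads are scaled by its size factor. In each library 100% of values were whole multiples of 1 read (tolerance 1e-06), so reads were recovered for edgeR and DESeq2. Floors cover counting error only. The table also holds the authors' log2 fold changes and p-values for 6 pairs of groups, which were not used.

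Tests were run on log2(value + 1) of the deposited signal with limma 3.58.1 under R 4.3.3 (trended prior variance), a scale that understates changes of low genes. All 8 libraries entered 1 model with a coefficient for each of the 4 groups (4 residual degrees of freedom). The filter (2 or more libraries at 10 or above) left 9031 genes, over which p-values were adjusted after Benjamini and Hochberg, with calls made below 0.05. No batch is labelled and none was modeled. The fit was tested on simulated data. Alternatives were pseudocounts of 0.5 and 5, no filter, a minimum of 20, TMM scaling, only the compared groups, edgeR 4.0.16 quasi-likelihood, DESeq2 1.42.0 with default and with the study's settings, and leaving out each library.

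Genes and lists were chosen with earlier results of these data known. By the rule for naming, all 9 genes were named, then the genes of each list called in Lats1-CKO against WT basal-like cells (at most 4 a list), and for Cdh1, Epcam and each other called gene the 5 tested genes with the highest correlation. The repressors of Cdh1, the activators of epithelial genes, Jup, Cldn7, Krt7, Krt19 and single basal and fibroblast markers were named after their values were seen. Of 10924 symbols, 10759 were found in GENCODE M21, the source of coordinates. Overlaps with other genes were judged after extending each gene as the authors did. Some genes of the lists, and 1 list as a whole, are not reported here.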

Additional observations from a re-analysis of the deposited data

How the results depend on the processing

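Of 476 alternative values for the 7 genes in the 5 comparisons, 427 kept direction and call, 24 lost a call, 4 gained one and 21 turned the direction. Cdh1, Epcam and Nectin4 kept their direction between Lats1-CKO basal-like cells and either WT basal-like or Lats1-CKO luminal cells in every alternative. Cdh2 between luminal cells turned to -0.0084 by edgeR and to -0.0227 (default) and -0.0165 (study's settings) by DESeq2.

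Between Lats1-CKO and WT basal-like cells, 3 of the set (Nectin4 included) and 50 genes were called. Only the compared groups in the model gave 0 and 0, edgeR 1 and 17, and DESeq2 184 genes by default (89 higher, 95 lower) and 170 with the study's settings (89 higher, 81 lower). Leaving out 1 library gave 0 to 2 of the set and 0 to 78 genes, both 0 without WT basal-like replicate 1. Between Lats1-CKO basal-like and luminal cells (3 and 44, Nectin4 and the sort marker Epcam included), only the compared groups gave 0 and 0, edgeR 32 genes, and DESeq2 137 (20 higher, 117 lower) and 138 (27 higher, 111 lower). Leaving out 1 library gave 1 to 3 and 9 to 93. Between luminal cells, a minimum of 20 gave 1 gene, DESeq2 27 with either setting, and leaving out 1 library 0 to 2. Between WT populations DESeq2 gave 4 and 1. For the interaction DESeq2 gave 2 of the set with either setting and 22 and 21 genes, and leaving out 1 library gave 0 to 2 genes.

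Leaving out 1 library, the log2 fold change of Cdh2 ranged from -2.63 to 0.34 between basal-like cells, -2.50 to 0.47 between Lats1-CKO populations, -0.37 to 0.44 between luminal cells, -0.52 to 0.83 between WT populations and -2.66 to 0.31 in the interaction. That of Ctnnb1 ranged from -0.46 to 0.25 between basal-like cells and -0.16 to 0.55 between WT populations. That of Ctnna1 ranged from -0.28 to 0.14 between luminal cells and -0.22 to 0.19 between WT populations, that of Epcam from -0.41 to 0.0266 between luminal cells, and that of Ctnnd1 from -0.39 to 0.16 in the interaction. The cause was not tested. No paired analysis was possible because the labels number the libraries singly and give no replicate number that groups share. With 2 libraries a group, a library left alone in its group was assumed to vary like the others.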
